A study of Rattus norvegicus with 20 samples.

Results

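Blood transcriptomes of rats fed a resveratrol-supplemented diet were compared with those of rats fed the same diet without the supplement. The comparison took the CSAA+RSV rats other than Rat4, which left 4 rats, against the 5 CSAA rats, so 9 of the 20 libraries of the series. It covered every gene with at least 2 reads in at least 15 of the 19 libraries used, which were 16734 of 32882 genes. All animals were male, wild-type F344 rats aged 8 weeks, and all ate CSAA, a defined amino acid diet with sufficient choline. The tested rats had 1.2 g/kg resveratrol (RSV) mixed into that diet for 20 days, and the CSAA rats received the base diet alone over the same time. Of the 2 remaining diets, used only for contrast, CSAA+PTS held 1.34 g/kg pterostilbene and CSAA+CGA 1.9 g/kg of the unrelated polyphenol given as CGA, doses the study set equal in molar terms. Rats were housed 2 to a cage, and whole blood was drawn behind the eye, from the retro-orbital plexus. Each library came from 1 rat, and RNA was sequenced as single 50-base reads.

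Resveratrol is a stilbene polyphenol of grapes, and pterostilbene is its analog with methoxy groups in place of a pair of its hydroxyl groups. Resveratrol taken by mouth is absorbed well but is rapidly conjugated to sulfate and glucuronide. It is known as an activator of the deacetylase SIRT1 and of AMPK, an inhibitor of cyclooxygenase, an inducer of the antioxidant factor NRF2 and an antagonist of the aryl hydrocarbon receptor. In whole blood, RNA comes from reticulocytes, platelets and white cells together, so fewer cells of a type and less RNA per cell cannot be told apart.

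Total counts per library were close between the diets, from 28643607 to 33143713 in the 4 CSAA+RSV rats and from 27132523 to 32875802 in the 5 CSAA rats. CSAA+RSV Rat4, left out, had 861072. RSV Rat5 had at least 1 read in 29232 genes, whereas the other CSAA+RSV rats had 20432 to 23632 and the CSAA rats 19600 to 25104, the highest of them CSAA Rat5. The fifth rat was also the highest of its diet with PTS, at 29543 genes, and with CGA, at 28014. Markers of red cells, platelets, neutrophils, monocytes, T, B and NK cells were all present, and the white-cell or platelet markers without a read in any of the 9 rats were Gp1bb and Il7r.

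No gene passed the limit between CSAA+RSV and CSAA blood. The quasi-likelihood test of edgeR, fitted over the 4 diets with p adjusted by the Benjamini-Hochberg method over all 16734 genes, gave 0 genes under an adjusted p of 0.05 (0% of genes), and the lowest adjusted p was 0.9998. Without adjustment, 355 genes (2.12%) had p under 0.05, of which 202 were higher in CSAA+RSV rats (1.21%) and 153 lower (0.914%). DESeq2 and limma also gave 0 genes under an adjusted p of 0.05, with 379 and 1111 genes at an unadjusted p under 0.05. Here and below, limma was run with voom and sample weights. The lowest bin of p held fewer genes than the 836.7 that equal filling of all bins would give. The data bounded many genes: for 12198 of the 16734 (72.9%), the 95% interval of the fold change lay within 2-fold in either direction, and the median standard error was 0.22 on the log2 scale. Levels are given from here on as CPM, counts scaled to a common library size by TMM.

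**Figure D1:**
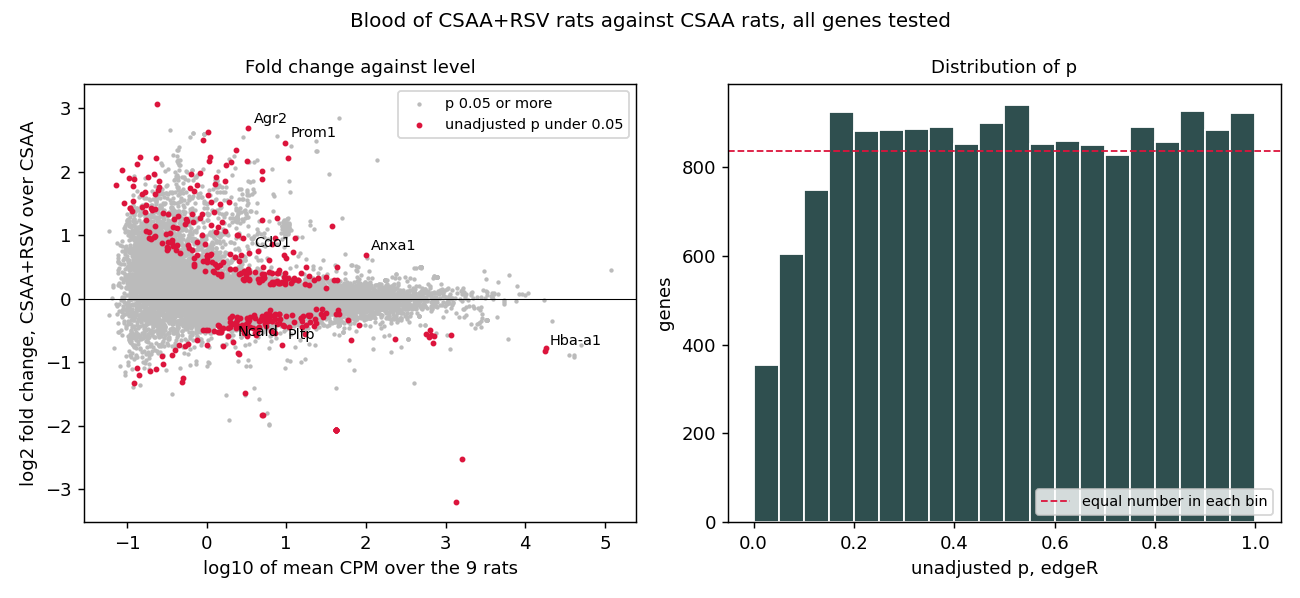
Left, log2 fold change (CSAA+RSV over CSAA) of each of the 16734 genes against the log10 of its mean CPM over the 9 rats, with the 355 genes at an unadjusted p under 0.05 in red. Right, number of genes in each bin of p, where the bin under 0.05 holds 355 genes and the dashed line marks the 836.7 of equal filling.

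The 4 CSAA+RSV rats and the 5 CSAA rats did not overlap at 124 genes (0.741%), of which 66 were higher with RSV (0.394%) and 58 lower (0.347%). Diet accounted for 9.27% of the variance of log2 CPM across the 9 rats, and an exact permutation test over all 126 splits gave p = 0.56 (one-sided, smallest possible 0.00794). RSV Rat5 was the rat with the highest level for 132 of the 202 genes that were higher with RSV at an unadjusted p under 0.05. Over all genes, it was the highest of the 9 rats for 26.1%. The fifth rats of the diets are matched only by the number in their sample titles. Their column labels number the animals 17 for CSAA, 22 for CSAA+RSV, 23 for CSAA+PTS and 24 for CSAA+CGA. When the fifth rat of every diet was left out, 0 genes passed the adjusted limit in edgeR. At an unadjusted p under 0.05 there were 537, 202 higher and 335 lower. Of the 202 genes higher at that limit in the fit that kept the fifth rats, 69 were again higher. Of the 153 lower genes in that fit, 107 were again lower.

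The genes described first had the lowest p on the higher side among genes with a mean of at least 1 CPM and a symbol that is not provisional. They were picked for their p, so their p restates that choice. Cdo1, cysteine dioxygenase, which opens the route from cysteine to taurine, had 4.01, 3.16, 3.21 and 6.90 CPM in RSV Rat1, Rat2, Rat3 and Rat5, against 2.47, 2.66, 2.58, 2.70 and 2.73 CPM in CSAA Rat1 to Rat5. Every CSAA+RSV rat lay above every CSAA rat, and the log2 fold change was 0.72 ± 0.19 (SE; adjusted p = 0.9998 in edgeR). Without the fifth rats it was 0.40. S100a6, a small calcium-binding protein, had 18.8, 18.3, 18.9 and 29.6 CPM in CSAA+RSV rats, against 13.5, 16.4, 14.1, 15.4 and 16.3 CPM in CSAA rats, again with no overlap. Its log2 fold change was 0.50 ± 0.16 (SE), and 0.32 without the fifth rats. Siva1, an apoptosis-promoting partner of the receptor CD27, had 4.16, 3.61, 4.31 and 3.51 CPM against 2.90, 3.22, 2.70, 3.12 and 2.197 CPM in CSAA rats. This difference, 0.46 ± 0.16 (SE) on the log2 scale, stayed at 0.42 without the fifth rats.

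Several other genes of this group were highest in RSV Rat5. Anxa4, an annexin that binds membrane phospholipid in the presence of calcium, had 12.0, 12.1, 12.8 and 25.5 CPM in CSAA+RSV rats, against 8.49, 8.41, 7.67, 9.66 and 12.4 CPM in CSAA rats. Its log2 fold change was 0.74 ± 0.21 (SE) and 0.51 without the fifth rats. Sytl2, which tethers secretory vesicles through RAB27, had 4.19 CPM in RSV Rat5 and 1.86 to 2.18 CPM in the other CSAA+RSV rats, against 1.45 to 1.82 CPM in CSAA rats. Its log2 fold change was 0.70, and 0.31 without the fifth rats. Serpinb10, a protease inhibitor, had 12.5 CPM in RSV Rat5 and 4.95 to 6.57 CPM in the other 3, against 4.43 to 5.21 CPM in CSAA rats, with a log2 fold change of 0.61, and 0.22 without the fifth rats. Mal, a raft protein of T cells and epithelia, averaged 51.8 ± 10.96 CPM with RSV and 36.8 ± 3.96 CPM without (SD, n = 4 and 5). Its log2 fold change was 0.49, and 0.38 without the fifth rats. The remaining genes named on this side had log2 fold changes of 0.33 for Arfgap3, a regulator of Golgi transport, 0.41 for the mitotic kinase Mastl, 0.50 for the tight-junction protein Ocln (0.32 without the fifth rats) and 0.41 for Rcn1, a calcium-binding protein of the endoplasmic reticulum.

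Under the same limits on level and symbol, the genes with the lowest p on the lower side were less dependent on the fifth rats. Ncald, the calcium sensor neurocalcin delta, had 1.77, 1.79, 1.13 and 1.67 CPM in CSAA+RSV rats, against 3.05, 2.35, 2.30, 2.24 and 2.79 CPM in CSAA rats. All CSAA+RSV rats were below all CSAA rats, and the log2 fold change was -0.68 ± 0.20 (SE; 95% interval -1.09 to -0.26) and -0.67 without the fifth rats. Lypla2, a thioesterase that removes palmitate from proteins, averaged 7.38 ± 0.36 CPM with RSV and 9.25 ± 0.84 CPM without (SD, n = 4 and 5), with no overlap. Cfap298, a protein of motile cilia, had 1.72 to 2.01 CPM in CSAA+RSV rats, against 2.16 to 2.77 CPM in CSAA rats. Emp3, a membrane protein of white cells, had 4.56 to 6.85 CPM against 6.94 to 8.29 CPM in CSAA rats. For these 4 genes the size without the fifth rats was between -0.67 and -0.34.

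Socs2, which restrains cytokine and growth hormone signaling, averaged 1.24 ± 0.27 CPM in CSAA+RSV rats and 1.78 ± 0.17 CPM in CSAA rats (SD, n = 4 and 5). RSV Rat5, at 1.59 CPM, lay inside the CSAA range of 1.53 to 1.96 CPM. The log2 fold change was -0.52 ± 0.19 (SE), and -0.65 without the fifth rats. Other genes on this side were Zhx3 (log2 fold change -0.45), Fam78a (-0.30), Jazf1 (-0.43), Rnf26 (-0.53), Fam43a (-0.31) and Ap2a1, a subunit of the clathrin adaptor AP-2 (-0.33). The largest sizes on the lower side belonged to features with many copies or without a gene name. The 5.8S ribosomal RNA, counted at several near-identical loci, had 34.5, 10.6, 4.13 and 11.8 CPM in CSAA+RSV rats, against 56.5, 49.0, 95.6, 103 and 16.1 CPM in CSAA rats. The CSAA Rat5 value lay inside the CSAA+RSV range. The loci named for this RNA held the same count in each rat, apart from 3640 or 3641 reads in CSAA Rat4. They are therefore not separate measurements.

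**Figure D2:**
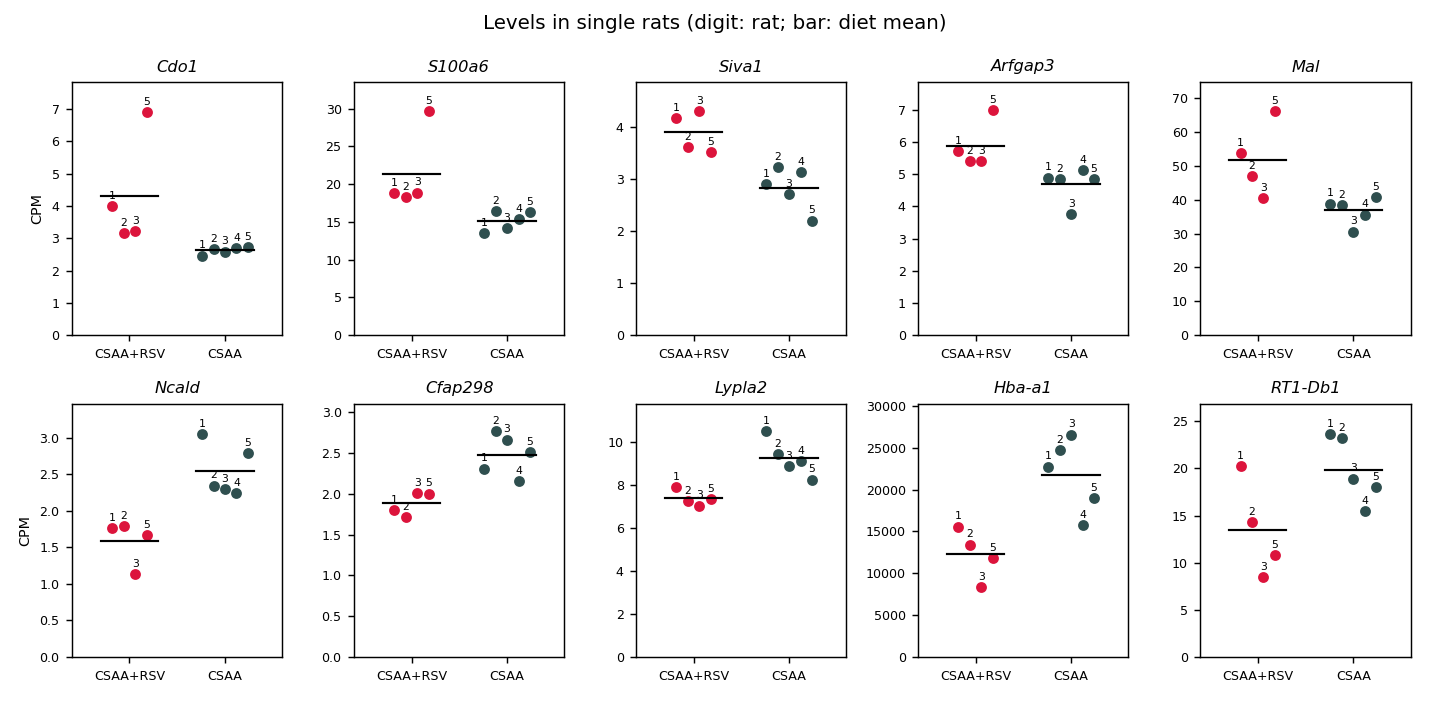
CPM of 10 genes in each rat, CSAA+RSV left and CSAA right, with the rat's number above its point and a bar at the diet mean. In the upper row Cdo1, S100a6, Siva1 and Arfgap3 show no overlap between diets, and in the lower row Ncald, Cfap298, Lypla2 and Hba-a1 show none.

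Genes of hemoglobin, the oxygen carrier of blood, were the most abundant group with a difference. Hba-a1, an alpha-globin gene, had 15569, 13412, 8375 and 11805 CPM in RSV Rat1, Rat2, Rat3 and Rat5, against 22740, 24740, 26562, 15744 and 19022 CPM in CSAA Rat1 to Rat5. The diets did not overlap, with RSV Rat1 just below CSAA Rat4. The log2 fold change was -0.82 ± 0.38 (SE; adjusted p = 0.9998 in edgeR). Hba-a2, at 8636 to 16334 CPM in CSAA+RSV rats against 17108 to 27512 CPM in CSAA rats, had -0.78 and no overlap. The beta-globin gene Hbb had -0.92, with levels that overlapped. Of the 8 measured genes of the hemoglobin list, 7 had a log2 fold change below 0 (46.7% over all genes), 2 of them at an unadjusted p under 0.05 (0.914% over all genes), and the median was -0.80 (0.02 over all genes). The exception was Ahsp, the chaperone of free alpha-globin, at 0.14. Globin genes lie in clusters of near-identical copies, so how reads were assigned among copies is uncertain. The genes of the list may share reads and may not be separate measurements.

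Summed over 11 globin genes, globin took 15.1%, 10.6%, 4.85% and 13.1% of the counts of the CSAA+RSV rats, against 19.7%, 20.7%, 19.1%, 13.6% and 15.3% in the CSAA rats. RSV Rat1 lay inside the CSAA range. RSV Rat3, the lowest in globin, had the highest share of counts in signal recognition particle RNA, 27.9%, against 16.1% to 23.02% in the other CSAA+RSV rats and 16.8% to 21.7% in CSAA rats. The part of that RNA in the globin result was not tested. When hemoglobin genes were left out of the scaling, the count of genes past the adjusted limit stayed at 0.

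Other red cell genes differed less. Of 30 genes of the red cell membrane and of erythroid regulation, 24 were below 0 with a median log2 fold change of -0.07, and 0 had an unadjusted p under 0.05. Of 21 genes of heme synthesis and iron, 13 were below 0 with a median of -0.03. The one with p under 0.05 was Ftl1, a chain of the iron store ferritin, with 1358, 799.8, 668.0 and 806.1 CPM in CSAA+RSV rats, against 1177, 1461, 1466, 1476 and 1193 CPM in CSAA rats. RSV Rat1 was inside the CSAA range and the other 3 were below it, for a log2 fold change of -0.58 ± 0.26 (SE). Of 20 platelet genes, 17 were below 0 (median -0.22), none at an unadjusted p under 0.05. The shares over all genes were 46.7% below 0 and 0.914% lower at that limit.

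The promoter of Hba-a1 is shown because globin led the abundant genes. It is the RefSeq window from 250 bases before to 50 bases after the start, at chr10:15842531-15842830 on the minus strand of GRCr8, with the letters GATAA, the core of sites for the erythroid factor GATA1, in capitals. GATAA on either strand occurs in 4 of the 7 hemoglobin-list promoters in the RefSeq set and in 26.5% of all 33469 promoters of that length.
Hba-a1: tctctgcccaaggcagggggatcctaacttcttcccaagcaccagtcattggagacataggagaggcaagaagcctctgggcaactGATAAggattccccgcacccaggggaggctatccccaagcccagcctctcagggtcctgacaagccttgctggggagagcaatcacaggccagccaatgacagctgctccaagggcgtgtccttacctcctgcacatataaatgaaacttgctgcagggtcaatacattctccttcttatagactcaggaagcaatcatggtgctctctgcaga

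Lymphocyte genes leaned lower in CSAA+RSV blood without passing the adjusted limit. Of 20 genes of B and plasma cells, 16 were below 0 (median -0.25), and Spib, an ETS factor of the B lineage, was the one at an unadjusted p under 0.05. Spib had 9.65, 7.72, 7.30 and 6.56 CPM in CSAA+RSV rats, against 10.8, 10.8, 9.37, 9.91 and 11.1 CPM in CSAA rats. RSV Rat1 alone reached the CSAA range, and the log2 fold change was -0.41 ± 0.16 (SE). Of 23 T cell genes, 19 were below 0 (median -0.15), with Cd8a (-0.22) and Cd8b (-0.34), the chains of the CD8 co-receptor, at p under 0.05. Over all genes, 46.7% were below 0 and 0.914% were lower at that limit. The NK and cytotoxic genes had a median of 0.00 over 15 genes.

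Genes of MHC class II antigen presentation were looked at after their values were seen. Of 11 genes, 9 were below 0 (median -0.29), against 46.7% of all genes. RT1-Db1, a beta chain of rat class II, had 20.2, 14.3, 8.51 and 10.8 CPM in CSAA+RSV rats, against 23.6, 23.2, 18.9, 15.5 and 17.98 CPM in CSAA rats. RSV Rat1 lay among the CSAA rats, and the log2 fold change was -0.56 ± 0.21 (SE). Cd74, the invariant chain that escorts class II molecules, averaged 69.0 ± 16.8 CPM with RSV and 92.2 ± 12.9 CPM without (SD, n = 4 and 5), with overlap between the diets. Neutrophil genes had a median of -0.03 over 18 genes. Monocyte and macrophage genes had one of 0.14 over 17. Among them C1qa, a subunit of complement C1q, had few reads: 3, 5, 18 and 29 in RSV Rat1, Rat2, Rat3 and Rat5, against 1 to 5 in CSAA rats. Its levels were 0.09, 0.18, 0.66 and 0.75 CPM, against 0.04 to 0.18 CPM in CSAA rats, so the gap rested on RSV Rat3 and Rat5.

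**Figure D3:**
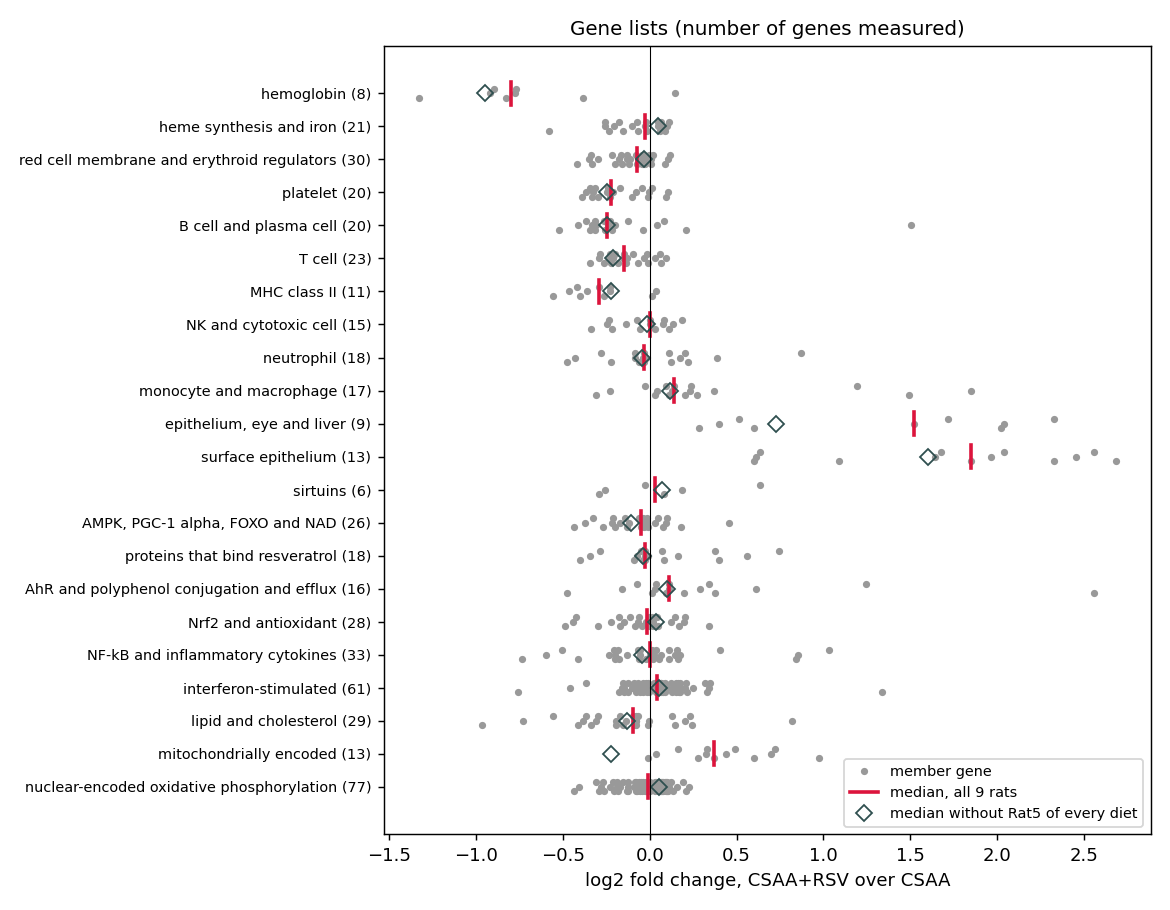
Log2 fold change (CSAA+RSV over CSAA) of every measured gene of 22 lists (grey), with the median over all 9 rats (red bar) and without the fifth rat of every diet (open diamond). Hemoglobin lies lowest, at a median of -0.80, and the epithelial lists highest, at 1.52 and 1.85, while the mitochondrially encoded genes move from 0.37 to -0.22 when the fifth rats are left out.

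Large positive fold changes were ranked among genes with a symbol that is not provisional, a mean of at least 1 CPM and an unadjusted p under 0.05. The 5 largest were all highest in RSV Rat5, and other genes of epithelia showed the same. Krt13, a keratin of stratified mucosa such as the conjunctiva, had 35.8, 2.74, 22.1 and 174 CPM in RSV Rat1, Rat2, Rat3 and Rat5, against 2.58, 14.6, 0.81, 7.90 and 48.8 CPM in CSAA Rat1 to Rat5. Krt15, a keratin of basal cells, had 22.1, 0.74, 16.7 and 138 CPM, against 0.55, 10.3, 0.57, 4.26 and 28.6 CPM in CSAA rats. In both diets Rat5 was the highest, and the diets overlapped. The log2 fold changes were 1.97 ± 1.15 for Krt13 and 2.32 ± 1.23 for Krt15 (SE), and 1.62 and 1.73 without the fifth rats. Agr2, a disulfide isomerase of mucus-secreting cells, had 21.9 CPM in RSV Rat5 and 0.63 to 1.79 CPM in the other CSAA+RSV rats, against 0.28 to 2.61 CPM in CSAA rats. Its log2 fold change was 2.68 and, without the fifth rats, 0.87. Prom1, Cwh43, Upk1b and Tmc5, the others of those 5, had log2 fold changes of 2.23 to 2.62, and of 1.06 to 1.99 without the fifth rats.

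The surface epithelium list, chosen after values were seen, held 15 genes. These summed to 123.7, 12.3, 106.1 and 729.4 CPM in CSAA+RSV rats, against 11.7, 67.7, 7.15, 50.1 and 202.5 CPM in CSAA rats. All 13 tested genes leaned higher with RSV (median log2 fold change 1.85), 2 of them at an unadjusted p under 0.05 (1.21% over all genes). Without the fifth rats the median was 1.60, with 1 at that limit. In the list of epithelium, eye and liver genes, all 9 measured were above 0 (median 1.52, and 0.73 without the fifth rats). Ptgr1, a reductase that inactivates leukotriene B4, had 9.66 CPM in RSV Rat5 and 0.39 to 1.13 CPM in the other 3, against 0.20 to 2.103 CPM in CSAA rats, the highest of which was again Rat5. The part of epithelial cells in the differences of Cdo1, Anxa4, S100a6 and the other genes highest in RSV Rat5 was not tested.

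**Figure D4:**
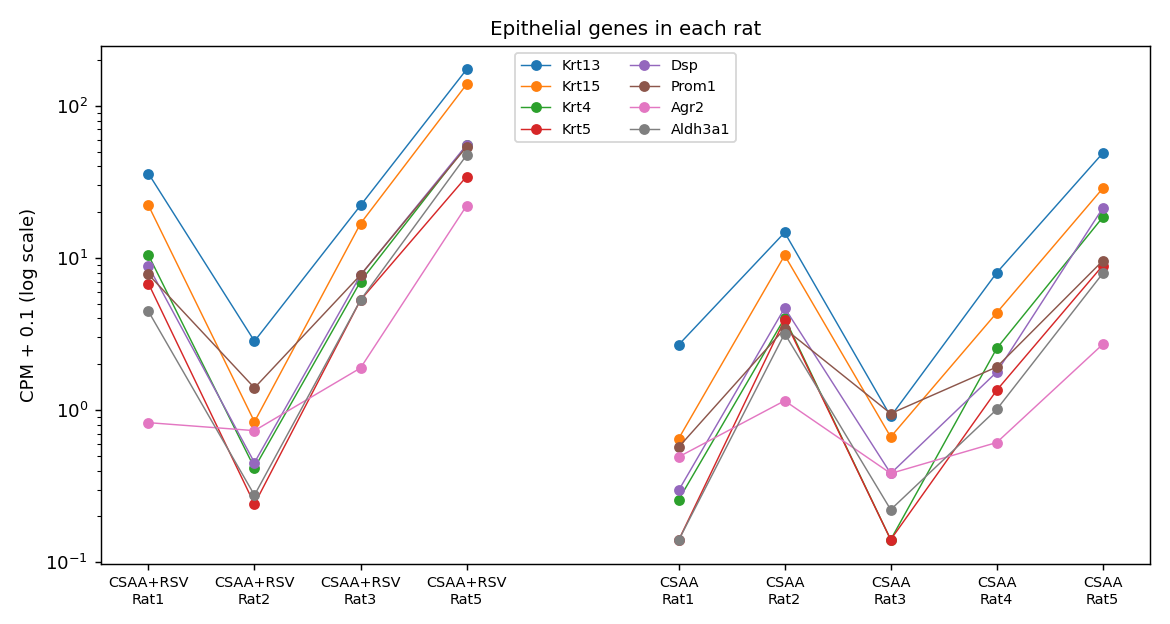
CPM plus 0.1 of 8 epithelial genes on a log axis in each CSAA+RSV rat (left) and each CSAA rat (right), 1 line per gene within a diet. The 8 genes are highest in Rat5 of either diet, with Krt13 at 174 CPM in RSV Rat5 and 48.8 CPM in CSAA Rat5.

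Transcripts of the proteins best known as targets of resveratrol showed no shared direction. The activity of these proteins was not measured. Of the sirtuins, the NAD-dependent deacylases, 6 were measured and Sirt1 was not analysed here. Sirt4, a mitochondrial sirtuin, had 1.04, 0.98, 0.69 and 0.78 CPM in CSAA+RSV rats, against 0.70, 0.63, 0.48, 0.31 and 0.69 CPM in CSAA rats. Its log2 fold change was 0.63 ± 0.29 (SE; adjusted p = 0.9998 in edgeR), at fewer than 2 CPM in every rat. Sirt2, the most counted of the 6, had -0.03, and Sirt3, Sirt5, Sirt6 and Sirt7 had 0.08, -0.29, -0.26 and 0.18. Of 26 genes of AMPK, PGC-1 alpha, FOXO and NAD metabolism, 19 were below 0 (46.7% over all genes). Their median was -0.05, and 0 had an unadjusted p under 0.05. The 18 measured genes of proteins that bind resveratrol, such as cyclooxygenases and ATP synthase subunits, had a median of -0.03 and 0 such genes. The list of the aryl hydrocarbon receptor and polyphenol conjugation had 13 of 16 genes above 0 (8915 of 16734 over all genes). It had a median of 0.11, again with 0 genes at that limit. Its highest value, 2.56 for Aldh3a1, a corneal aldehyde dehydrogenase, came with 47.2 CPM in RSV Rat5, and was 1.61 without the fifth rats.

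Antioxidant and inflammatory genes were spread around 0. Of 28 NRF2-linked and antioxidant genes, 12 were above 0 and 16 below, with a median of -0.01. Gstm1, a glutathione transferase, had 2.97, 1.93, 1.93 and 2.73 CPM in CSAA+RSV rats, against 3.29, 3.61, 2.66, 4.15 and 2.54 CPM in CSAA rats. RSV Rat1 and Rat5 reached the CSAA range, and the log2 fold change was -0.44 ± 0.16 (SE). Gpx3, the secreted glutathione peroxidase, had -0.42. Of 33 genes of NF-kB and inflammatory cytokines, 17 were above 0 and 16 below (median 0.00). The 2 at p under 0.05, both lower (0.914% over all genes), were T and NK cell chemokines. Ccl5 had 1.85 to 3.37 CPM in CSAA+RSV rats against 2.61 to 5.52 CPM in CSAA rats (log2 fold change -0.59). Ccl4 had 0.29 to 1.48 CPM against 1.09 to 1.53 CPM (-0.74).

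Among 29 lipid and cholesterol genes, 23 were below 0 (median -0.10), against 46.7% of all genes. Pltp, which transfers phospholipid between lipoproteins, had 9.94, 5.75, 3.18 and 6.98 CPM in CSAA+RSV rats, against 9.47, 10.2, 10.2, 10.2 and 13.6 CPM in CSAA rats. Only RSV Rat1 reached the CSAA range, and the log2 fold change was -0.73 ± 0.32 (SE). Anxa1, an annexin induced by glucocorticoids that limits inflammation, had 96.2, 91.5, 91.5 and 221 CPM in CSAA+RSV rats, against 52.1, 71.2, 63.0, 91.2 and 113 CPM in CSAA rats, which is above 4 of the 5 CSAA rats in every case. Its log2 fold change was 0.68, and 0.41 without the fifth rats. The early gene Nr4a1 (-0.53) and Psat1 (-0.50), an enzyme of serine synthesis, leaned lower with p under 0.05 before adjustment, and Slc7a5, a carrier of large neutral amino acids, had -0.57 without reaching that limit. The 13 mitochondrially encoded genes had a median of 0.37, and -0.22 without the fifth rats. Their summed level was 13201 CPM in RSV Rat5 and 7001 to 10503 CPM in the other CSAA+RSV rats, against 6549 to 8822 CPM in CSAA rats.

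The remaining lists described had median log2 fold changes from -0.10 to 0.13, apart from the genes of collagen, fibroblasts and vessel wall. Of 90 genes of cytosolic ribosomal proteins, 59 were below 0 (46.7% over all genes) with a median of -0.04. The 77 nuclear genes of oxidative phosphorylation had a median of -0.01, the 39 proteasome genes 0.01, the 27 autophagy genes 0.01, the 23 cell cycle genes 0.0025, the 38 heat shock and chaperone genes -0.0047 and the 17 DNA methylation genes -0.06. The 17 circadian clock genes had a median of -0.05, the 24 immediate early genes 0.10, the 28 genes of amino acid transport and the integrated stress response -0.04, the 17 glucocorticoid-responsive genes 0.11 and the 34 genes of the actin and myosin cytoskeleton -0.10. None of these genes passed the adjusted limit. Eosinophil, basophil and mast cell genes had a median of 0.0024 over 10, and skeletal muscle genes 0.13 over 5. The 19 genes of collagen, fibroblasts and vessel wall had a median of 0.43, and -0.09 without the fifth rats.

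Interferon-stimulated genes were close between CSAA+RSV and CSAA blood. Of 61 such genes, 36 were above 0 and 25 below, with a median of 0.04. Ifi27, an interferon-induced membrane protein, had 156, 190, 182 and 83.2 CPM in CSAA+RSV rats, against 140, 159, 163, 127 and 181 CPM in CSAA rats, with a log2 fold change of -0.01 ± 0.26 (SE; 95% interval -0.57 to 0.54). Irf7, the factor that drives type I interferon, had -0.01 (95% interval -0.55 to 0.52). Rtp4, an interferon-induced chaperone, had 0.13 (-0.17 to 0.44), and Oas2 and Oas1a, sensors of double-stranded RNA, had 0.17 and 0.07. Lgals3bp, a secreted glycoprotein that interferon also induces, had -0.46 ± 0.24 (SE), with 37.2 to 57.6 CPM in CSAA+RSV rats against 54.7 to 72.4 CPM in CSAA rats.

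Against pterostilbene, the methoxy analog, 58 of 61 interferon genes had a difference above 0 with RSV, 32 of them at an unadjusted p under 0.05 (2.34% over all genes) and 0 past the adjusted limit in edgeR. The RSV against PTS comparison is 1 of 2 between polyphenols made here, and it used the same CSAA+RSV rats as above. Rtp4 had 15.2, 18.8, 16.2 and 13.4 CPM in CSAA+RSV rats, against 7.91, 9.40, 11.1, 8.46 and 8.10 CPM in CSAA+PTS rats, with no overlap. The log2 difference was 0.83 ± 0.15 (SE; 95% interval 0.52 to 1.13), with an adjusted p of 0.38 in edgeR, 0.0055 in DESeq2 and 0.037 in limma. Rtp4 was the sole gene past the adjusted limit in either of those other tools, and in edgeR there were 0. Oas2 averaged 6.32 ± 1.61 CPM with RSV and 2.69 ± 0.58 CPM with PTS (SD, n = 4 and 5; log2 difference 1.23 ± 0.25, SE). Oas1a averaged 59.1 ± 16.7 CPM with RSV and 28.0 ± 10.5 CPM with PTS, and Ifi27 averaged 153 ± 48.6 CPM with RSV and 72.8 ± 26.5 CPM with PTS, with log2 differences of 1.08 and 1.07. RSV Rat5 was the lowest of the CSAA+RSV rats in both, at 37.5 CPM for Oas1a, below the highest CSAA+PTS rat at 37.8 CPM. For Ifi27, RSV Rat5 at 83.2 CPM lay below CSAA+PTS Rat2 and Rat3 at 85.0 and 104 CPM.

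Over the interferon list, the median difference between RSV and PTS was 0.39 (0.00 over all genes). The epithelial lists had larger medians. The surface epithelium list, chosen after values were seen, had 3.62, with all 13 tested genes above 0. Of these, 10 were higher at an unadjusted p under 0.05 (2.34% over all genes). Genes of epithelium, eye and liver had 2.13, with 6 above 0, 3 below and 4 higher at that limit. Across all genes, 512 were at that limit (3.06%), 392 higher with RSV (2.34%) and 120 lower (0.717%). On the lower side, under the same limits on level and symbol, the genes with the lowest p included Ly49i4, an NK cell receptor (-0.58). Also among them were Cd83, an activation marker of dendritic and B cells (-0.54), and Rgs1, which dampens chemokine receptor signaling (-1.71). Rgs1 had 2.49, 2.32, 2.74 and 2.00 CPM in CSAA+RSV rats, against 1.83, 17.6, 15.2, 2.66 and 2.04 CPM in CSAA+PTS rats, so its difference rested on CSAA+PTS Rat2 and Rat3. Hba-a1 had a difference of 0.28 between RSV and PTS (95% interval -0.49 to 1.06). In the comparison of RSV with CGA, edgeR gave 0 genes past the adjusted limit and 327 at an unadjusted p under 0.05 (1.95%). DESeq2 and limma also gave 0 there, with 358 and 990 at the unadjusted limit.

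**Figure D5:**
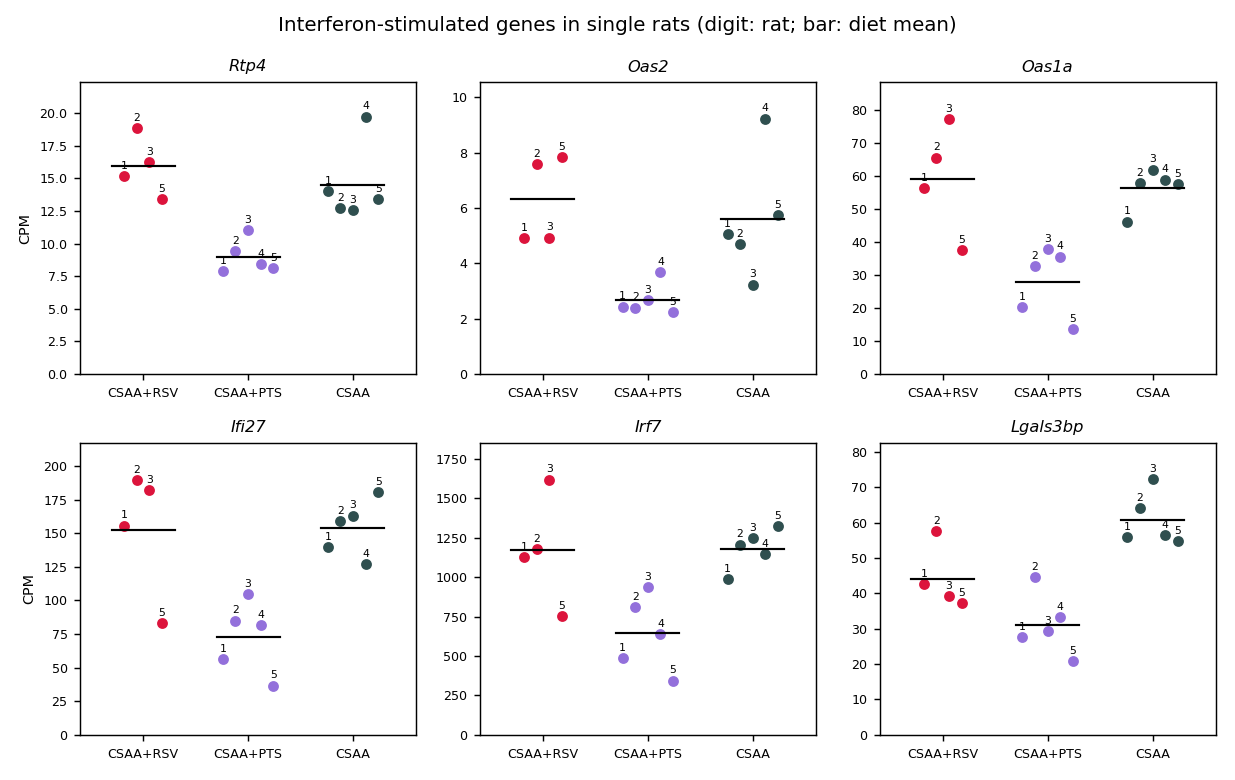
CPM of 6 interferon-stimulated genes in each CSAA+RSV, CSAA+PTS and CSAA rat, with the rat's number above its point and a bar at the diet mean. Rtp4 lies at 13.4 to 18.8 CPM in CSAA+RSV rats and at 7.91 to 11.1 CPM in CSAA+PTS rats, while the CSAA+RSV and CSAA rats overlap in all 6 genes.

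The promoters of Ifi27 and Oas1a are shown because both genes had log2 differences above 1 between RSV and PTS. The windows are those of RefSeq in GRCr8, at chr6:128355062-128355361 and chr12:41330216-41330515, both on the plus strand, with the letters GAAA, any pair of bases and again GAAA in capitals (either strand, overlaps allowed), a core of interferon-stimulated response elements. These letters occur in 29 of the 43 interferon-list promoters in the RefSeq set and in 3.92% of all 33469. Rtp4 and Oas2 are named only.
Ifi27: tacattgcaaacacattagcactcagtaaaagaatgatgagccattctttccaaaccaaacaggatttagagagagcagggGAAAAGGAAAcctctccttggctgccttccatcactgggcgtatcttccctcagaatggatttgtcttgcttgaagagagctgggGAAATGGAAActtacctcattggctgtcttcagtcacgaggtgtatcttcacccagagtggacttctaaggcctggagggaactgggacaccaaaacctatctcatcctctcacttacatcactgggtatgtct
Oas1a: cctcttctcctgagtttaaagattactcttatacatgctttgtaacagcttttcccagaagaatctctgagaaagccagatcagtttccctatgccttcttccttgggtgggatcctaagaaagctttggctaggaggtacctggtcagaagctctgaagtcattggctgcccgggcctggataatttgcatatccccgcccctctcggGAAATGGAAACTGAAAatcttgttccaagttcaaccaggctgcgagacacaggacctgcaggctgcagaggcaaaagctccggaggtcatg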

How the data were processed

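Whole numbers of reads per Ensembl gene, the counts that the authors deposited for 20 rats, were the only values used. The authors trimmed reads with Trimmomatic 0.32 and FastX-Toolkit, checked them with FastQC 0.11, aligned them to rn6 with TopHat2 2.1, counted them with Rsubread, and ran DESeq2 1.30 by diet. The sources used here give neither whether Rsubread counted by strand nor which rats shared a lane. Overlapping genes and lanes could therefore affect single values. The labels do not say whether rats of a diet shared a cage.

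CSAA+RSV Rat4 was left out, as in the study. Genes with at least 2 reads in at least 15 of the 19 libraries were fitted by diet in R 4.3.3 with edgeR 4.0.16 (TMM scaling, quasi-likelihood test, two-sided, Benjamini-Hochberg adjustment, limit 0.05). The standard error is the log2 fold change over the root of the F statistic. DESeq2 1.42.0, limma 3.58.1 (voom with sample weights) and other scalings and filters were alternatives. So were a block by the number in the sample title, not the animal number, and rats left out. The code was tested on simulated data. The share of variance used log2 CPM with a prior count of 2.

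Named genes were the 12 per direction with the lowest p and the 5 with the largest fold change at p under 0.05. Both needed a mean of at least 1 CPM and a symbol that is not a clone, locus or provisional name. The 5 per direction with the lowest p between RSV and PTS were named under the same limits. Also named were the 3 lowest-p members of each of 35 lists, genes past the adjusted limit in any tool, and a few genes known from the study. Genes of the surface epithelium and MHC class II lists, Hbb, Ahsp and Ptgr1 were added after values were seen. A few genes and a list that the rule covers are not reported here. Members and lists were chosen with earlier results of these data known. Promoters came from RefSeq (GRCr8), matched by symbol, and no rn6 coordinates were used.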

Additional observations from a re-analysis of the deposited data

Results flagged for a closer look

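In 161 groups of values examined (the genes described above, depth and list sums, by diet), 21 held a rat far from the rest of its diet. The nominal rate of this flag is about 1 in 20 groups of unselected values. Many of the genes were picked for their values, so the 21 cannot be set against that rate. RSV Rat5 was the rat that stood apart in 13 of the 21. Its values were 25.5 CPM for Anxa4 (others 12.0 to 12.8), 29.6 for S100a6 (18.3 to 18.9), 4.19 for Sytl2 (1.86 to 2.18), 21.9 for Agr2, 53.6 for Prom1 (1.30 to 7.70), 6.46 for Tmc5 (0.07 to 0.79), 138 for Krt15, 5.39 for Krt18, a keratin of simple epithelia (0.39 to 0.95), 221 for Anxa1 (91.5 to 96.2), 9.66 for Ptgr1, 47.2 for Aldh3a1 (0.18 to 5.18), 220.0 summed over the epithelium, eye and liver list (8.32 to 41.2) and 729.4 over surface epithelium (12.3 to 123.7).

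CSAA Rat5 stood above the other CSAA rats for Krt13 (48.8 CPM, others 0.81 to 14.6), Pltp (13.6, others 9.47 to 10.2) and Ptgr1 (2.103, others 0.20 to 0.56), and below them for Ly49i4 (1.22, others 1.86 to 2.07). The other values far from their diet were those of Cd8a in RSV Rat1 (34.2 CPM, others 26.9 to 28.2), Arfgap3 in CSAA Rat3 (3.75, others 4.83 to 5.11), Rtp4 in CSAA Rat4 (19.7, others 12.6 to 14.1) and Oas1a in CSAA Rat1 (46.1, others 57.5 to 61.8).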

How the results depend on the processing

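The count of genes past an adjusted p of 0.05 between CSAA+RSV and CSAA stayed at 0 under every alternative run, and so did the count past 2-fold. At an unadjusted p under 0.05, the 355 genes became 1136 with no filter on low counts and 1111 in limma with sample weights. They became 537 without the fifth rats and 620 with the replicate block. In their deviations from the diet means, CSAA+RSV and CSAA rats with the same title number correlated at 0.23, -0.30, 0.11 and 0.71. Of the 4 CSAA+RSV rats, 1, Rat5, correlated best with its own title number. Not every pair was positively correlated, so the numbers were not taken to pair the samples. Whether the fifth rats share a batch was not tested. Leaving out 1 rat gave 236 to 683 genes at that limit, and 178 to 507 without overlap, a count that grows as groups shrink. The 124 genes without overlap were 190 with no filter, 56 with CSAA+RSV Rat4 kept and 727 without the fifth rats. Against CSAA+PTS, the 0 genes of edgeR became 1 in DESeq2 and 1 in limma.

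Of 68 genes described and recomputed against CSAA, 9 changed sign. Ifi27 became 0.00543 under upper quartile scaling, 0.11 in limma and 0.25 without the fifth rats, and ran from -0.12 to 0.19 with 1 rat left out. Irf7 became 0.00764, 0.00290 and 0.18 under those settings, and ran from -0.21 to 0.15 with 1 rat left out. Oas1a became -0.010 with CSAA+RSV Rat4 kept, and ran from -0.088 to 0.23 with 1 rat left out. Krt18 ran from -0.052, the value without RSV Rat5, to 2.17 with 1 rat left out. Sirt2 became 0.0010 with CSAA+RSV Rat4 kept and 0.079 without the fifth rats, and Cd83 became 0.12 in limma and 0.15 without the fifth rats. With 1 rat left out, Sirt2 ran from -0.21 to 0.085, Cd83 from -0.18 to 0.14, Sirt3 from -0.056 to 0.21, Ahsp from -0.084 to 0.31 and Ly49i4 from -0.17 to 0.010. The hemoglobin median ranged from -1.01 to -0.63, and the epithelium, eye and liver median from 0.16 to 2.17. With 4 and 5 rats, the 95% interval of the genes outside the 72.9% bounded above reached beyond 2-fold.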
